A study of Mus musculus with 16 samples.

Results

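RNA polymerase II (Pol II) was mapped by ChIP-seq in mouse CD8+ T cells that had been cultured with the LSD1 inhibitor GSK2879552 (GSK) or with vehicle (Veh). The members are the peaks of both Pol II lists, 15638 in Veh and 15401 in GSK, which makes 31039 of the 214352 peaks in the 12 lists of the series. The spleens of OT1 mice were the source. Most of their CD8+ T cells bear the same transgenic antigen receptor, which recognises an ovalbumin peptide. In both groups they were stimulated with antibodies to CD3 and CD28 in the presence of IL-2 for 48 h and then grown in IL-2 for 3 days, with 0.5 µM GSK2879552 or vehicle present throughout. Chromatin was fixed with formaldehyde, sonicated and precipitated with the antibody sc-56767. Each group held 1 library, so no difference below could be set against a spread between replicates, and no test was run. Read numbers are not part of the peak lists, and depth is therefore unknown from the files. Intervals are 95% intervals for counting error only, and neighbouring peaks are not independent.

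Pol II transcribes all protein-coding genes, most long non-coding RNAs and the spliceosomal small nuclear RNAs (snRNAs) except U6, which is made by RNA polymerase III, as are tRNAs. It is recruited to promoters, and at most genes it pauses shortly after the transcription start site (TSS) before it is released into the gene body. After the polyadenylation site it continues for some distance before it leaves the template, so ChIP signal for Pol II is typically highest just after the TSS, low over gene bodies and somewhat raised past gene ends. LSD1, encoded by Kdm1a, removes methyl groups from mono- and dimethylated lysine 4 of histone H3 and works in complexes with corepressors such as Rcor1.

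The 4 promoters printed here belong to genes whose Pol II peaks are described later. Polr2a and Tnf had strong promoter peaks in both lists. Pdcd1 had a promoter peak in Veh only, and Slamf6 a weak one in GSK only. Each runs from 250 bases before to 50 bases after the RefSeq start in the GRCm38.p6 build and is written 5′ to 3′ on the strand of the gene. Capitals mark every match to 3 motifs on either strand. They are the TATA box, searched as TATAAA, the CCAAT box, searched by that sequence, and the GC box, searched as GGGCGG. A match on the opposite strand appears as its reverse complement. The positions are chr11:69758584-69758883 (minus strand) for Polr2a, chr17:35201958-35202257 (minus) for Tnf, chr1:94052504-94052803 (minus) for Pdcd1 and chr1:171917212-171917511 (plus) for Slamf6.
Polr2a: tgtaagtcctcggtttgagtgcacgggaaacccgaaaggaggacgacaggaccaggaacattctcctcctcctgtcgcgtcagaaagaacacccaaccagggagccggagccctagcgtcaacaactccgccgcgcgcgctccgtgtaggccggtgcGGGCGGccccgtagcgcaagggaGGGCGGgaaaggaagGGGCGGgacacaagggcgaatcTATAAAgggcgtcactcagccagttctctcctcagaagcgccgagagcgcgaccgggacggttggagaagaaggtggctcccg
Tnf: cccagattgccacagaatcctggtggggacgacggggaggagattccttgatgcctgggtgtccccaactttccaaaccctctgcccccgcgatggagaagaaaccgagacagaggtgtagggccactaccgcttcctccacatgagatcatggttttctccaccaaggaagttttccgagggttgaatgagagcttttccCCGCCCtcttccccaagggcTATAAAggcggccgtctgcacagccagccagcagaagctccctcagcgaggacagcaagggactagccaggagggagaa
Pdcd1: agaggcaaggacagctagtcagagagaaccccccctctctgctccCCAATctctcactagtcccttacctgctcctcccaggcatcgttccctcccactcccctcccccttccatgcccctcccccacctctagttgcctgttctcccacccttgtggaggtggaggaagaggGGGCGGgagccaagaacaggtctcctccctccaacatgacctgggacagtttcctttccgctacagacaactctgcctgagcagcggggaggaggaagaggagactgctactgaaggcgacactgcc
Slamf6: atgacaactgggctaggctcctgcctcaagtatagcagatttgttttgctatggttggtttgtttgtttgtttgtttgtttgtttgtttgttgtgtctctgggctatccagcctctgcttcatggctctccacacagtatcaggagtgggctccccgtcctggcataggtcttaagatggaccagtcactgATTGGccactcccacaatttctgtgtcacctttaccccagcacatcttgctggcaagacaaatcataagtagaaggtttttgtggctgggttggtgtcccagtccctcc
The Polr2a window held 30 CpG dinucleotides at 63.7% G+C, with a TATAAA match starting 33 bases before the TSS. The Tnf window held 11 CpGs and a TATAAA match 29 bases before the TSS. The Pdcd1 and Slamf6 windows held 5 and 1 CpGs and no TATAAA match.

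The 3 windows that follow lie around Pol II summits, the positions of highest pileup within a peak, and show where 3 peaks were centred. These are the strongest peak at an annotated snRNA gene, and the strongest Veh-only and GSK-only promoter peaks with no peak of the other list within 1 kb. Each spans 100 bases on either side of the summit, and capitals mark the 21 bases centred on it. Gm22634 is a U1 snRNA gene, and its window at chr12:54710627-54710827 (plus strand) lies past the end of the annotated gene. The Camk1d window is chr2:5714373-5714573 (minus), with the summit 289 bp after the TSS. The Yipf4 window is chr17:74489466-74489666 (plus), with the summit 73 bp after the TSS.
Gm22634: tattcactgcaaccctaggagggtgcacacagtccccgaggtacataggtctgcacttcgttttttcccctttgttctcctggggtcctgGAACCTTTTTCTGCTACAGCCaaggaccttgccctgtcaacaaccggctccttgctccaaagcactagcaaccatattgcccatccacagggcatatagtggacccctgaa
Camk1d: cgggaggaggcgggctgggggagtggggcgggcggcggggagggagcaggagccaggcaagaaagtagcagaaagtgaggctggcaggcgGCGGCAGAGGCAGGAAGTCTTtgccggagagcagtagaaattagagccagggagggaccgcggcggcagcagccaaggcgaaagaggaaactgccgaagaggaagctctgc
Yipf4: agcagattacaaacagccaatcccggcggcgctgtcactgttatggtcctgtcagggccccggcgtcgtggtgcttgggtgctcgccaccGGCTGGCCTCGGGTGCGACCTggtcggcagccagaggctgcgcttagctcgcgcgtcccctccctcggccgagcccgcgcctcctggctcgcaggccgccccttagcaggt
The Camk1d and Yipf4 windows had a G+C content of 66.2% and 70.1%, and the Gm22634 window 52.7%.

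The cell type label was checked at the promoters of marker genes, where a promoter is the region within 1 kb of a TSS and a gene has a promoter peak if a Pol II peak overlaps it. Of 10 CD8+ T cell markers, 8 had a promoter peak in at least 1 list. Cd8b1, Cd3e, Lck, Zap70 and Thy1 had it in both, Cd247 in Veh only, and Cd3d and Cd3g in GSK only. Veh and GSK peaks that overlap each other lay in Cd247 and Cd3d or within 1 kb of them, so neither gene lacked Pol II peaks in either list. Cd8a and Cd2 had none. None of the 6 B cell, 3 CD4+ T cell, 2 NK cell and 2 erythroid markers had a promoter peak, and of 6 myeloid markers only Spi1 did, in Veh with a fold enrichment of 5.58.

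Most Pol II peaks were weak, and the 2 lists shared mainly their strong peaks. The authors' peak caller gives each peak a fold enrichment over local background and a −log10 p, and the median fold was 3.89 in Veh and 3.46 in GSK, with a median −log10 p of 5.80 and 5.14. Of the Veh peaks, 6111 (39.1%, 95% Wilson interval 38.3 to 39.8) were overlapped by a GSK peak by at least 1 bp, and of the GSK peaks 6100 (39.6%, 38.8 to 40.4) by a Veh peak. Peaks overlapped in this way are called shared. Among peaks with a −log10 p of 3 to 4, 2.95% of the Veh and 2.84% of the GSK peaks were shared, and among those of 20 to 50, 98.6% and 99.0%. Of the 1000 strongest peaks of each list, 99.1% were shared in both. Between these ends the lists differed. At a −log10 p of 7 to 10, 60.4% of the Veh peaks (58.4 to 62.4) but 82.7% of the GSK peaks (81.0 to 84.3) were shared. The GSK list held fewer peaks of high −log10 p, with 2719 at 10 or more against 3983 in Veh. The study's reporting summary, which lists these libraries as polIII, gives more uniquely mapped read pairs for GSK than for Veh, and also states random picking to equal read numbers. The part of depth in these differences was not tested.

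**Figure D1:**
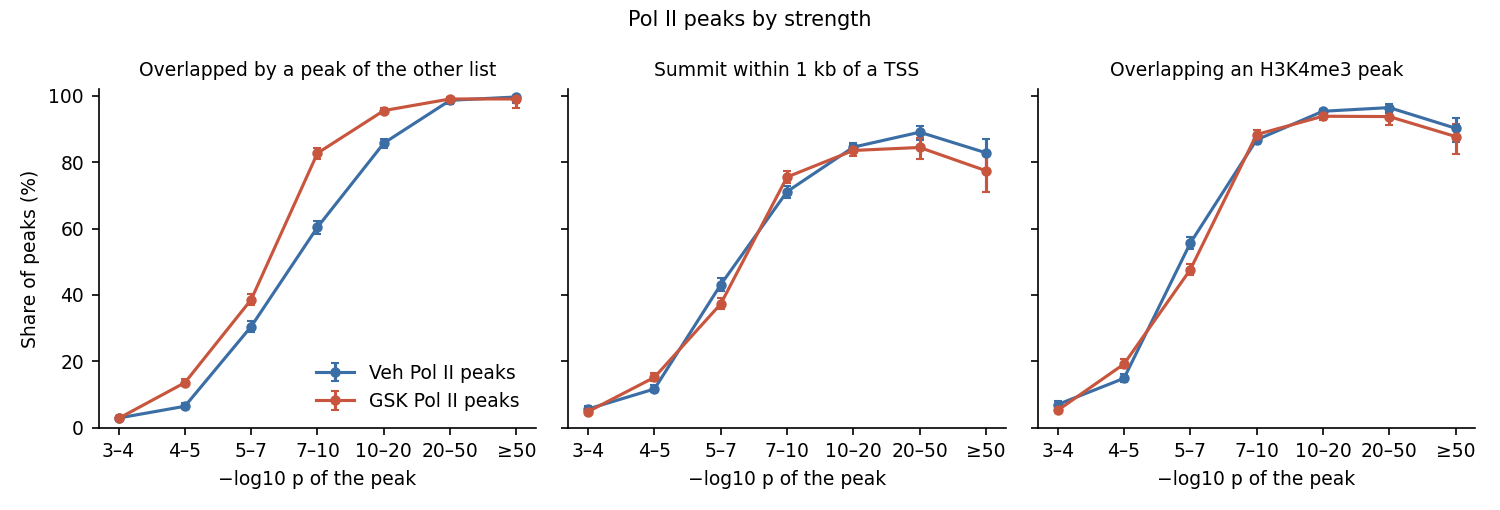
Share of Pol II peaks (%) in bins of −log10 p that were overlapped by a peak of the other list (left), had a summit within 1 kb of a TSS (middle) or overlapped an H3K4me3 peak of the same treatment (right). Blue is Veh, red is GSK, and bars are 95% Wilson intervals. The overlapped share climbs from 2.95% and 2.84% at 3 to 4 to 99.6% and 99.0% at 50 or more. The promoter and H3K4me3 shares climb up to 10 to 20, and at 50 or more they are lower than at 20 to 50. Promoter summits fall there from 89.0% to 82.8% in Veh and from 84.4% to 77.4% in GSK. H3K4me3 falls from 96.4% to 90.2% and from 93.7% to 87.7%.

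Shared peaks were at the same place in both lists. The 6196 overlapping pairs of a Veh and a GSK peak had a median distance of 42 bp between their summits, and 72.5% of pairs had summits within 100 bp. Their fold was lower in GSK, with a median log2 ratio of GSK to Veh of −0.28 and a higher GSK fold in 20.3% of pairs. Because of this offset promoters are compared below both by their folds and by a relative log2 fold, which is the log2 ratio of GSK to Veh minus its median over all promoters with a peak in both lists. This removes the median offset but not its dependence on strength, since the median relative log2 fold was 0.12 at a mean fold of 3 to 4 and −0.05 at 6 to 8.

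Pol II summits were concentrated around TSSs in both lists, and less of the GSK list lay there. Summits in promoters made up 43.6% of Veh peaks (42.8 to 44.4) and 37% of GSK peaks (36.2 to 37.7), a difference of −6.60 percentage points (−7.68 to −5.51), while promoters cover 2.04% of the chromosomes. The difference lay in the unshared peaks, of which 20.9% in Veh and 9.52% in GSK were in promoters, and among shared peaks it was −0.12 points (−1.57 to 1.33). Summits in gene bodies, that is within a gene and over 1 kb from any TSS, made up 23.3% and 24.6%, a difference of 1.3 points (0.35 to 2.25). Summits up to 5 kb past a gene end made up 2.71% and 3.02%, a difference of 0.308 points (−0.0634 to 0.68). The remaining 30.5% and 35.4% lay elsewhere. With only the peaks of −log10 q of at least 2, both the promoter and the gene body difference turned sign, to 0.24 points (−1.21 to 1.69) and −0.333 points (−1.38 to 0.724).

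Within promoters, Pol II summits stood at the same distance from the TSS in both lists. The median promoter summit was 59 bp after the TSS in Veh (quartiles −43 and 121 bp) and 62 bp after it in GSK (−28 and 123 bp). Summits within 200 bp of the TSS were 73.2% (72.1 to 74.2) and 73.3% (72.2 to 74.5) of promoter summits, and 57.9% and 57.8% fell within the 200 bp downstream. Upstream summits made up 28.8% and 28.3%. Unshared promoter peaks were more spread out, with 66.8% of the Veh (64.6 to 68.8) and 57.3% of the GSK peaks (54.0 to 60.5) within 200 bp of a TSS. The plot of summit positions shows both lists with the same peak in the bin just after the TSS.

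**Figure D2:**
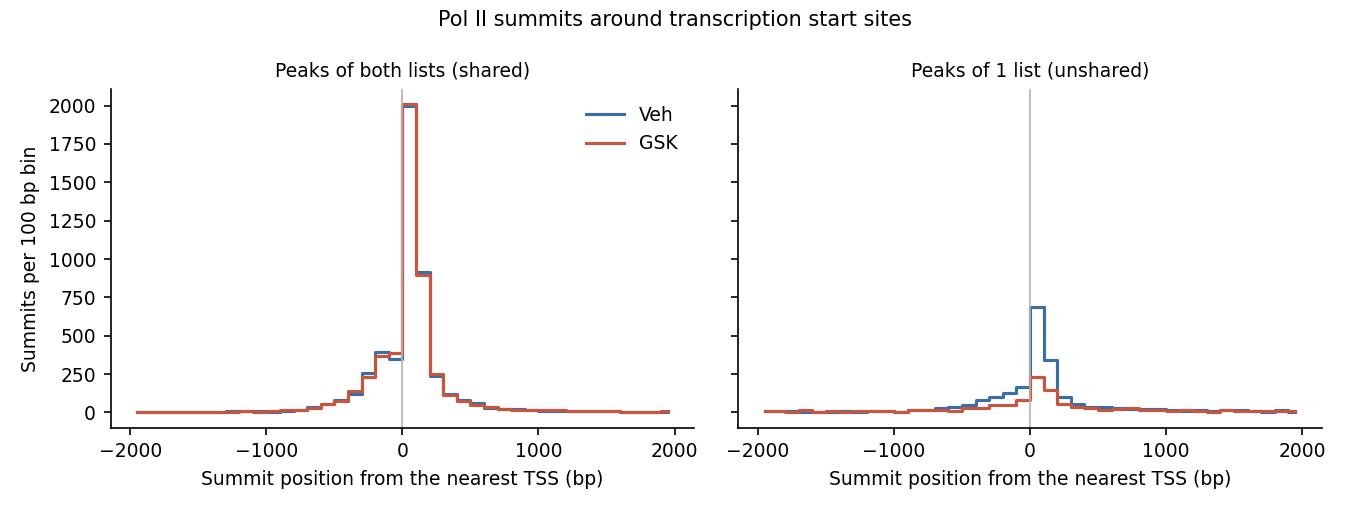
Number of Pol II summits in bins of 100 bp by position from the nearest TSS (bp, positive in the direction of transcription), for shared peaks (left) and unshared peaks (right) of Veh (blue) and GSK (red). The shared lists follow each other, with 1999 and 2008 summits in the bin centred at 50 bp, while in the unshared lists that bin holds 690 Veh and 231 GSK summits.

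Past gene ends, Pol II peaks were few, and the strongest of them included peaks at snRNA genes. Of the peaks outside promoters, 2.80% in Veh (2.48 to 3.16) and 2.76% in GSK (2.45 to 3.11) had a summit 0 to 2 kb after a gene end. The share was higher among shared peaks, 5.6% and 6.12%, than among unshared ones, 2.32% and 2.25%. The strongest Veh peak of this class, 3413 bp past Slfn14, had a fold of 15.1 in Veh and 11.2 in GSK and lay at the U2 snRNA gene Gm23444. The peaks 2887 bp past Gm51630 (13.2 in Veh, 12.7 in GSK) lay at another U2 gene, Gm25360. The Veh peak 2401 bp past Armh1 (12.9) lay at the U5 gene Gm23287, with 9.58 in GSK, and overlapped no peak of the other 5 antibodies. At the linker histone gene H1f3 the summit stood 249 bp after the gene end in Veh and 245 bp in GSK, with folds of 6.20 and 5.70. Past Ptgds, which encodes a prostaglandin D synthase, a shared Veh peak of fold 11.1 stood 855 bp after the gene end, and in GSK a peak of fold 5.79 stood 446 bp past the histone gene H3c15.

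Gene bodies held 3637 Pol II summits in Veh and 3782 in GSK, and few of them were shared, 15.4% (14.2 to 16.6) and 14.9% (13.8 to 16.1). Exons held 8.17% and 7.46% of these summits, the first intron 30.8% and 29.5%, and later introns 61.1% and 63.0%. The shared ones lay nearer the gene start. Of the shared gene body summits 20.9% in Veh and 21.8% in GSK were 1 to 3 kb from a TSS, against 7.02% and 5.07% of the unshared ones. Counted per Mb, unshared summits had nearly the same density in gene bodies (3.06 in Veh, 3.20 in GSK) as away from genes (2.79 and 3.26). Shared summits were denser in the bodies of genes with a promoter peak in both lists (0.954 per Mb in Veh, exact Poisson interval 0.822 to 1.10) than in genes with no promoter peak (0.397, 0.352 to 0.446), and GSK gave 0.980 and 0.394. Unshared summits had 3.20 and 2.95 per Mb in these classes of genes in Veh, and 3.01 and 3.18 in GSK.

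**Figure D3:**
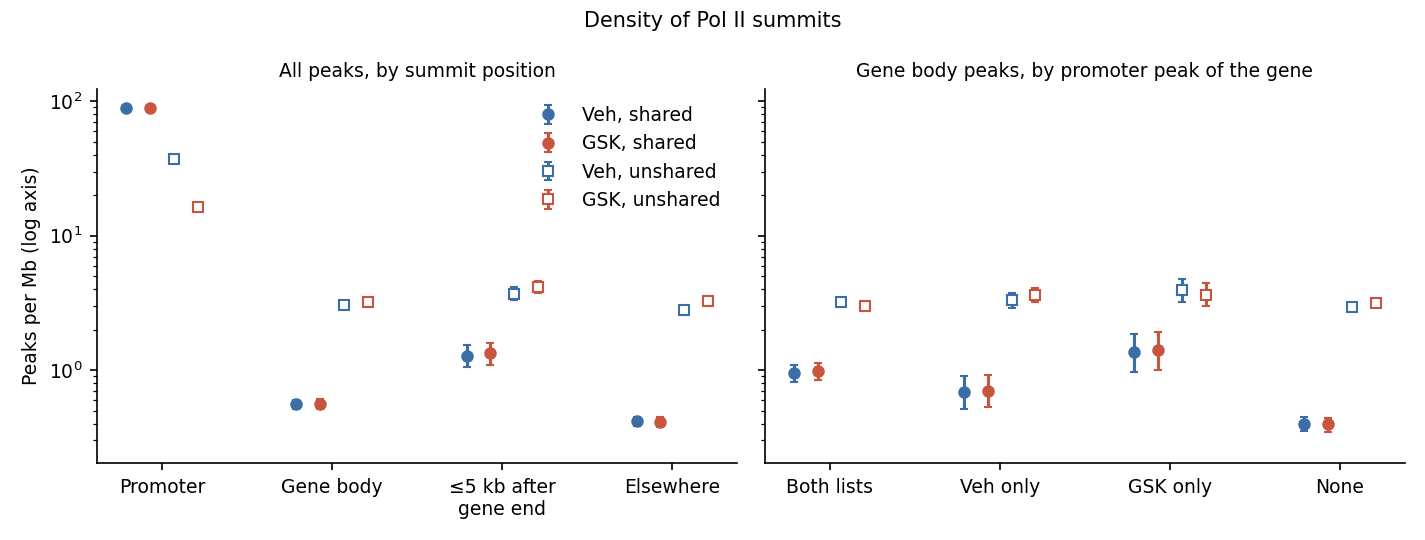
Pol II summits per Mb on a log axis by position (left), and summits in gene bodies by where the gene had a promoter peak (right). Filled circles are shared and open squares unshared peaks of Veh (blue) and GSK (red), and bars are exact 95% Poisson intervals. Shared summits range from 89.7 per Mb at promoters to 0.415 per Mb away from genes in Veh, while unshared summits outside promoters stay between 2.79 and 4.15 per Mb.

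The genes with most body peaks fell into 2 kinds. Cntnap2, Dmd and Lrp1b, which are 2241, 2256 and 2057 kb long, encode a neuronal cell adhesion protein, dystrophin and a lipoprotein receptor. Cntnap2 had 13 Veh and 7 GSK body peaks, Dmd 8 and 11, and Lrp1b 5 and 11, and in these 3 genes 0 peaks were shared and 0 overlapped a peak of the other 5 antibodies. In shorter genes many peaks recurred. Sfi1, a centrosomal protein gene of 68.8 kb, had 16 Veh and 21 GSK body peaks, of which 11 and 12 were shared, at a low median fold of 1.84 and 1.66. Gm38510 on chromosome 1 had 19 and 22 with 11 shared in each, Zfp978, a zinc finger gene, had 12 and 17 with 6 shared in each, and the nuclear body gene Sp140 had 7 and 10 with 6 shared in each. Snhg14, a long host transcript of snoRNAs without a promoter peak in either list, had 8 and 7 with 4 shared and folds of up to 12.1 and 12.8. Maml3, a coactivator in Notch signalling, had 7 in each with 4 shared and folds of up to 10.6 and 10.5. Many body peaks of these shorter genes also overlapped no peak of the other 5 antibodies. Such peaks numbered 4 in Veh and 9 in GSK at Sfi1, 7 and 17 at Gm38510, and 9 and 15 at Zfp978. At Sp140 they numbered 1 and 7, at Snhg14 6 and 5, and at Maml3 0 and 3. Whether reads map uniquely in these genes was not tested.

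Per gene, Pol II was mostly called once. Counting from 1 kb before the TSS to 1 kb after the gene end, 9780 of 26182 genes had a Veh peak and 8797 a GSK peak, and 79.1% and 80.2% of these had 1 peak. There were 476 and 449 genes with 3 peaks or more. Overlapping Veh and GSK peaks touched 6153 genes, 2664 genes had Veh peaks only, 1681 had GSK peaks only, and 963 had peaks of both lists that did not overlap.

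Promoters divided less evenly. Of the 8446 genes with a promoter peak in either list, 68.2% had it in both (5759 genes), 22.7% in Veh only (1918) and 9.1% in GSK only (769). At 5635 of the 5759 a Veh and a GSK peak that overlap each other touched the promoter. Of the genes with a promoter peak, 33.2% in Veh and 33.1% in GSK shared their promoter peak with another gene, as divergent pairs do. The genes with both had the strongest peaks, with a median fold of 5.77 in Veh and 4.59 in GSK, against 4.36 at Veh-only and 3.54 at GSK-only promoters. Across the 5759 genes with both, the folds of the lists had a Spearman correlation of 0.658, a description across genes that are not independent replicates. The GSK fold was the higher one at 17.6% of them, and the median log2 ratio of GSK to Veh was −0.30. Around this median the quartiles of the relative log2 fold were −0.22 and 0.22, and a relative fold at least 1.5 times higher in GSK was seen at 3.94% of these genes (227) and at least 1.5 times lower at 3.91% (225).

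**Figure D4:**
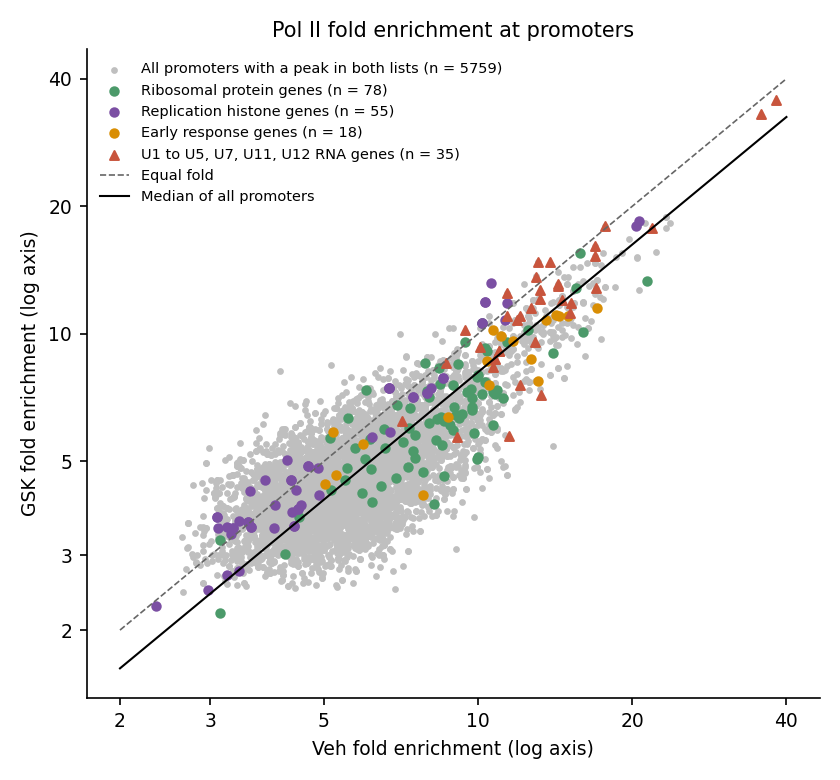
Pol II fold enrichment in Veh and GSK, both on log axes, for promoters with a peak in both lists (grey) and for 4 gene groups, where snRNA points (red triangles) are peaks within 200 bp of the gene. The dashed line marks equal folds and the solid line the median ratio. Ribosomal protein genes (green) centre on 8.47 in Veh and 6.32 in GSK, and replication histone genes (purple) on 4.46 and 4.53.

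The 10 genes with the highest mean promoter fold had folds of at least 20.3 in Veh and 17.8 in GSK. Srsf7, a splicing factor gene on chromosome 17 (80200080-80207305), had a fold of 23.7 in Veh and 18.3 in GSK. Fam53c, which shares its peak with the microRNA gene Mir12191, had 23.3 and 18.9. Scarna2, a small RNA of Cajal bodies, had 23.3 and 17.8, and Rnu3b4, a U3 snoRNA gene, 21.9 and 17.8. Polr2a, which encodes the largest subunit of Pol II itself, had 21.2 and 18.3. The replication histone genes H4c17 (20.6 and 18.5) and H4c18 (20.3 and 18) and the shared promoter of Taf4, a subunit of the general factor TFIID, and 4921531C22Rik (20.5 and 18) followed. All of these lay within 0.15 of the median in relative log2 fold, that is, close to the offset of the whole list.

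Veh-only promoter peaks included moderately strong ones. Camk1d, a calcium/calmodulin-dependent kinase gene (chr2:5293457-5714762), had a Veh fold of 10.3 with a −log10 p of 25.4, and no GSK peak within 1 kb. The shared promoter of Bop1, needed for ribosome assembly, and Hsf1, the main heat shock transcription factor, had a Veh fold of 9.27 (−log10 p 24.0). Traf5, a signalling adaptor of TNF receptors, had 9.54, the corepressor gene Sin3b 9.19, and Rpl36, a ribosomal protein gene, 6.84. Also Veh-only were Map7d1 (7.79), Tomm6 with Tomm6os (8.25) and Mfng (7.47). H3K4me3 peaks of both treatments lay at all of these promoters, as at 1801 of all 1918 Veh-only genes.

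GSK-only promoter peaks were weaker. Yipf4, a gene of the Golgi (chr17:74489493-74500277), had a GSK fold of 6.39 with a −log10 p of 15.7, and Prdm11 had 6.01 (−log10 p 14.8). Fosb, an AP-1 subunit gene, had 5.06, the translation repressor gene Eif4ebp2 5.52, the actin-related gene Actr6 6.19 and Elp3, a subunit of Elongator, 6.30. The other names chosen by the same rule were Slc12a4 (6.16), Mtch1 (5.85) and Uchl1 with Uchl1os (6.09). These too had H3K4me3 in both treatments, as did 669 of all 769 GSK-only genes. At 744 of the 769 GSK-only genes and 1895 of the 1918 Veh-only genes no peak of the other list lay within 1 kb of the peak. Jund shows an exception made by the window: its GSK peak (fold 8.32, −log10 p 86.5) began 798 bp after the TSS, while the Veh peak that it overlaps (8.73, 76.1) began 1030 bp after it and so fell outside the promoter.

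Among promoters with a −log10 p of at least 10 in both lists, the lowest relative fold in GSK was at Zc3h10 (14 in Veh, 5.43 in GSK, relative log2 −1.06). Its Veh peak is centred at the neighbouring ribosomal protein gene Rpl41 and its GSK peak is a separate one, so the value compares different peaks. The next were the shared promoter of Rfc5, a subunit of the DNA clamp loader, and Gm15728 (11.4 and 4.65, −0.99), Pdlim7 (11.3 and 4.89, −0.90), Rtn3 (10.5 and 4.57, −0.89) and Usp18, a protease that removes ISG15 (11.1 and 5.02, −0.84). The highest was at Slc7a1, which encodes a transporter of arginine and lysine (5.17 in Veh, 8.44 in GSK, 1.01). It was followed by the zinc transporter gene Slc39a10 (7.04 and 9.97, 0.80), Churc1 (5.66 and 7.90, 0.78), Rasa2, a negative regulator of Ras (5.33 and 7.04, 0.71), the nuclear export gene Xpo6 (5.42 and 7.17, 0.71) and Faf2 (5.52 and 7.28, 0.70). H3K4me3 peaks of both treatments were present at all of them, as at 5732 of all 5759 genes with a promoter peak in both lists.

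Spliceosomal snRNA genes and their relatives carried the highest Pol II folds of both lists. Of 265 annotated genes for U1 to U5, U7, U11 and U12, many of which are copies without a peak, 38 had a Pol II peak within 200 bp in either list and 35 had it in both. The folds at these genes ranged from 2.9 to 38.2 in Veh (median 12.9) and from 5.7 to 35.7 in GSK (median 11.7). Gm22634 on chromosome 12 (54710308-54710471) had the highest, 38.2 and 35.7, with the summit at position 54710727 in both lists, 256 bp past the end of the gene, where its printed window is centred. LOC115488077, another U1 gene on chromosome 12, had 35.7 and 33.1. Summits lay downstream of the gene end at 23 of 37 genes in Veh and 25 of 36 in GSK, at a median of 46 and 27 bp past it, and upstream of the gene at 1 and 2. H3K4me3 overlapped the peaks of 14 genes in each list, and 13 in Veh and 7 in GSK overlapped no peak of the 5 other antibodies.

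The relative log2 fold of the 35 snRNA genes had a median of 0.16 (range −0.70 to 0.49), with 24 above and 9 below the median of all promoters, against quartiles of −0.22 and 0.22 over all. The GSK fold itself was higher at 6 of them. None was 1.5 times higher and 1 was 1.5 times lower, the U2 gene Gm26316 (11.5 in Veh, 5.73 in GSK). In the U1 cluster of chromosome 3, Gm25890 had a peak of fold 12.5 in Veh only and its neighbour Gm22614 one of fold 14.2 in GSK only. These genes have near-identical copies, and with uniquely mapped reads the share of each copy is uncertain. Among genes of RNA polymerase III, 0.843% of 712 U6 genes and 11.2% of 403 tRNA genes had a peak within 200 bp in either list. The share was lower than at tRNA genes for 72 annotated U7 genes (1.39%) and 123 annotated U1 genes (8.13%). It was higher for U4 (16.7%), U11 (20%), U12 (25%), U2 (33.3%), U5 (63.6%) and U3 (100%). The 22 tRNA genes with a peak in both lists had a median Veh fold of 5.66, against 12.9 at the snRNA genes with a Veh peak. In the wider promoter window of 1 kb, both lists had a peak at Rn7sk (6.45 in Veh, 5.03 in GSK), which encodes the 7SK RNA. Within 200 bp of Rn7sk only the GSK list had a peak. In the wider window both lists also had a peak at Rpph1 (7.25 and 6.2), the RNA of RNase P. The same held for the 7SL genes Rn7s1 (6.59 and 5.38) and Rn7s2 (7.68 and 6.2). The values of Rn7s1 are also those of the neighbouring ribosomal protein gene Rps29. Rmrp had a Veh-only peak in this window (5.55).

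The largest −log10 p values of all, 3009 in Veh and 3458 in GSK, came from the start of chromosome 9, before 3.1 Mb, where 7 Veh and 9 GSK peaks lay. Elsewhere the highest were 502 and 459. The strongest of them in each list overlapped peaks of all 5 other antibodies. Of the 60 strongest peaks outside promoters in each list, 18 in Veh and 14 in GSK lay at an snRNA gene and 15 and 13 overlapped peaks of all 5 other antibodies.

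Replication histone genes, which encode the core and linker histones made in S phase, had a higher relative fold in GSK than promoters at large. Of 62 such genes 55 had a promoter peak and all of these had it in both lists (68.2% of all genes with a peak). Their median fold was 4.46 in Veh and 4.53 in GSK, and the GSK fold itself was the higher one in 26 of the 55 genes. The median relative log2 fold was 0.28, above 0 in 52 genes. Since neighbouring histone genes share peaks, these values rest on 40 distinct pairs of peaks, of which 38 were above 0. On chromosome 3 all 10 genes were above 0 (median 0.41), such as H2ac18 with H3c14 (10.3 in Veh, 11.9 in GSK), and on chromosome 13 42 of 45 (median 0.26). There the highest relative value was at H4c3 (10.6 and 13.2, 0.61) and the lowest at H2ac12 with H2bc12 (4.38 and 3.53, −0.01), the median fold was 4.31 in Veh and 3.94 in GSK, and the GSK fold was higher in 19 genes. Their peaks were wide, with a median of 968 bp in Veh and 1036 bp in GSK against 361 and 355 bp for all promoter peaks. The relative fold varies with strength. Among all promoters with a mean fold under 4 its median was 0.13, and there 15 of 21 histone genes lay above that, while at a mean fold of 8 or more the median of all was −0.03 and all 11 histone genes lay above it. Sorted by the Veh fold alone, histone genes under 4 had the same median as all promoters (0.35 and 0.36), and those of 8 or more had 0.29 against −0.12.

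Ribosomal protein genes had high folds in both lists. Of 86 genes 78 had a promoter peak in both lists, 3 in Veh only (Rpl36, Fau and Rps25) and 0 in GSK only, and 5 had none. Across all genes with a promoter peak, 68.2% had it in both lists, 22.7% in Veh only and 9.1% in GSK only. Their median fold was 8.47 in Veh and 6.32 in GSK, at a median relative log2 fold of −0.09, with 31 above and 47 below 0. At least 1.5 times lower were 4 and at least 1.5 times higher 0. At a mean fold of 6 to 8 their median was −0.19 against −0.05 for all promoters, with 7 of 30 above the latter, and at 8 or more it was −0.06 against −0.03. Rplp0, of the ribosomal stalk, had 21.4 and 13.3 (−0.38), Rpl7 8.21 and 3.96 (−0.75), Rpl3 15.8 and 15.5 (0.28), and Rpl5 6.05 and 7.36 (0.58). Of the 18 host genes of snoRNAs 14 had a peak in both lists (median −0.11). The lowest was Snhg17 (10.1 in Veh, 4.72 in GSK, −0.79), and Gas5 had 12.4 and 9.67 (−0.06).

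Early response genes, which are induced within minutes of a stimulus and are classic examples of paused Pol II, stood near the top of both lists. Of 23, 18 had a promoter peak in both (median relative log2 fold −0.04), and the median of these 18 stood at the 98.2 percentile of fold among all peaks in Veh and the 98.1 percentile in GSK. Btg2, which restrains proliferation, had a fold of 17.1 in Veh and 11.5 in GSK, Junb 15 and 11, Fos 11.7 and 9.64, and Myc 10.4 and 8.61. The lowest relative values were at Nr4a2, a nuclear receptor gene (7.80 and 4.17, −0.60), and the phosphatase gene Dusp1 (13.1 and 7.72, −0.46), and the highest at Egr1 (5.2 and 5.86, 0.47). Tnfaip3, an inhibitor of NF-κB signalling, was Veh-only (5.16), and Fosb and, through its window, Jund were GSK-only. Of 9 heat shock genes 5 had both, led by Hsp90aa1 (16.2 and 10.9), and 1 had no promoter peak. Hspa1a (3.39), Hspd1 and Hspe1 had a peak in GSK only, the last pair from 1 peak of fold 3.68. Across all genes with a promoter peak, 68.2% had it in both lists, 22.7% in Veh only and 9.1% in GSK only.

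Genes of the Pol II cycle had medians near that of all promoters where both peaks were present. Of 12 Pol II subunit genes 8 had a peak in both lists, Polr2b (5.37) and Polr2i (5.17) in Veh only and Polr2g (3.54) in GSK only. Of 22 genes for pausing and elongation factors 12 had both, with a median of −0.10. Hexim1, which holds the elongation kinase P-TEFb inactive, had 16.9 in Veh and 12.4 in GSK, and Supt5, a subunit of the pausing factor DSIF, 8.05 and 4.96 (−0.40). GSK-only were 6, with folds from 2.28 at Cdk9, the kinase of P-TEFb, to 4.75 at Ccnt2, and Veh-only were 3, of 21 genes with a promoter peak, against 9.1% and 22.7% of all genes with a promoter peak. Of 10 genes for cleavage and termination factors 8 had both (median −0.03), such as Xrn2, the exonuclease of termination, with 8.31 and 6.26. Of 12 genes of the LSD1 complexes 3 had both, and Kdm1a itself had no promoter peak but 2 Veh peaks in its body. Veh-only were 2, Rcor1 (5.05) and Phf21a (5.31), GSK-only were 2, and 5 had no promoter peak, Kdm1a included. Phf21a also had 1 GSK peak in its body, so it did not lack Pol II peaks in GSK. Of all genes with a promoter peak 22.7% were Veh-only and 9.1% GSK-only.

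T cell genes were mostly of moderate strength. Of 15 genes of IL-2 signalling 12 had a promoter peak in both lists, with a median relative log2 fold of 0.13 and 9 above 0. The feedback inhibitors Socs2 (3.32 in Veh, 4.65 in GSK, 0.79) and Socs1 (4.48 and 5.34, 0.56) and the receptor chain gene Il2ra (4.45 and 5.43, 0.59) were highest, and Il2rb was at −0.24 (6.68 and 4.58). The transducers Stat5a (4.96) and Stat5b (3.83) and the common receptor chain Il2rg (3.44) were Veh-only. These were 3 of 15 genes, against 22.7% of all genes with a promoter peak. Among 13 T cell transcription factor genes 7 had both, and Ets1 had the largest value of all the lists (2.98 and 5.38, 1.15). The Ets1 peak in Veh was weak (−log10 p 4.84). Over all promoters the median relative log2 fold was 0.51 at a Veh fold under 3. It was 0.36 at a Veh fold of 3 to 4, where Socs2 lay. Runx3 was at −0.10 (8.93 and 6.75), and Tbx21, the T-bet gene, was 1 of 3 Veh-only genes of this list (5.27).

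The study drew its inhibitory receptor, effector and memory genes from expression in the same treatment, so these lists are not independent of it. Of 15 memory and progenitor genes 4 had no promoter peak. Among the rest 7 had it in both lists, 3 in GSK only and 1 in Veh only, against 68.2%, 9.1% and 22.7% of all genes with a promoter peak. Id3, an inhibitor of E protein transcription factors, had 6.13 in Veh and 6.85 in GSK (0.46), Ccr7 13.7 and 10.7 (−0.06), and Bcl6 4.45 and 2.89 (−0.32). The Veh and GSK peaks of Bcl6 did not overlap, so the Bcl6 value compares different peaks. GSK-only were Foxo1 (5.08, −log10 p 12), Slamf6 (3.00, −log10 p 4.89) and Lef1 (2.34, −log10 p 3.04), the last 2 below the median −log10 p of the list. Slamf6 also had 2 Veh peaks in its body, and Lef1 had 1 Veh and 2 GSK body peaks, so neither gene lacked Pol II peaks in Veh. Of 18 effector and cytokine genes 5 had both and 13 had none, among them Ifng, Il2 and Gzma. Over the whole annotation 8446 of 26182 genes had a promoter peak in either list, so most genes had none. Tnf had 14.3 and 14 (0.27), Gzmb, the granzyme B gene, 3.78 and 3.84 (0.32), and Prf1, which encodes perforin, 5.43 and 3.77 (−0.22). Of 11 inhibitory receptor genes 2 had both, Ctla4 (5.51 and 5.67, 0.34) and Btla (3.65 and 3.42, 0.21), and 6 had no promoter peak. Pdcd1, the gene of PD-1, had a Veh-only peak of fold 6.04 (−log10 p 10.5), as did Tigit (4.48, −log10 p 7.21) and Vsir (4.75, −log10 p 8.93). Vsir also had 2 GSK peaks in its body, so it did not lack Pol II peaks in GSK. No inhibitory receptor gene was GSK-only. The median Veh-only promoter had a fold of 4.36. Of all genes with a promoter peak 22.7% were Veh-only and 9.1% GSK-only.

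**Figure D5:**
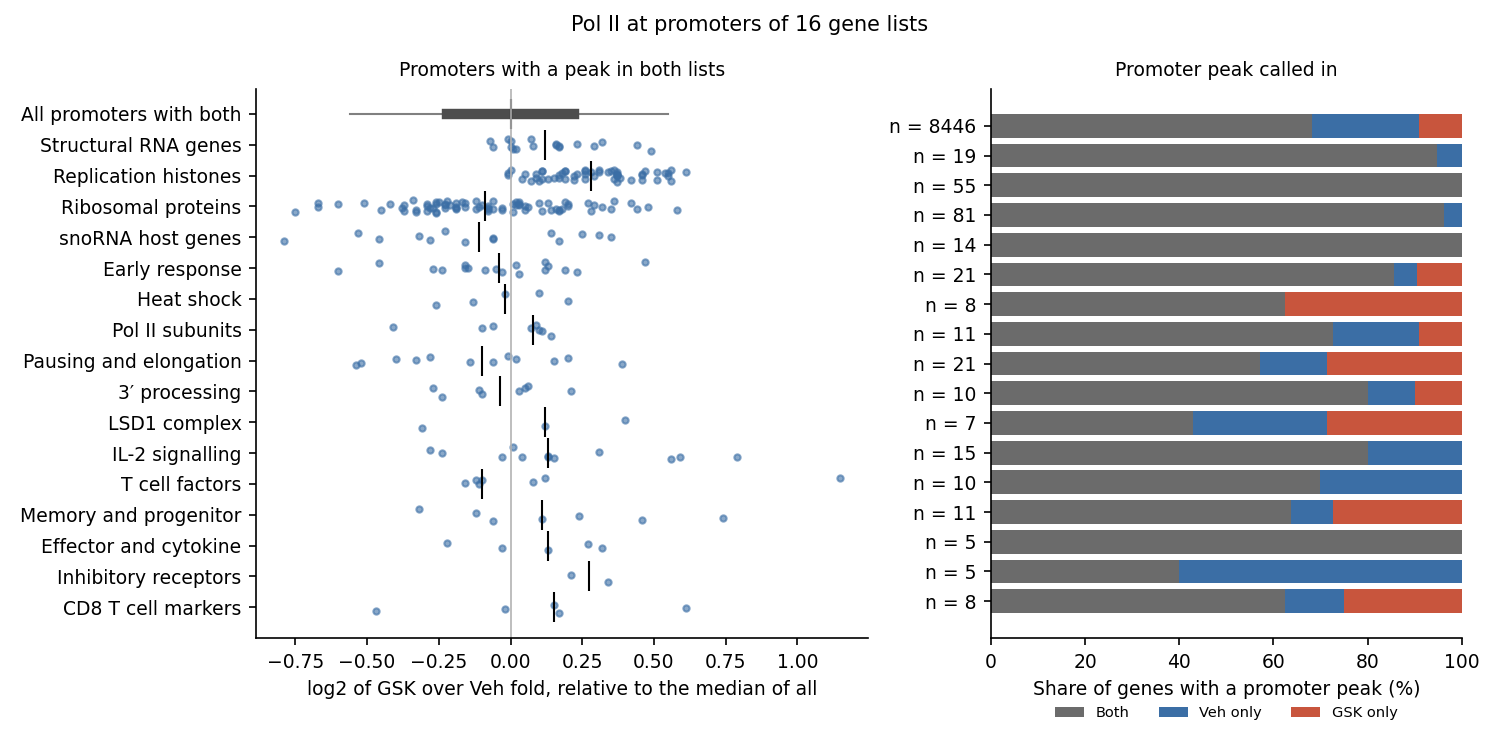
Left, relative log2 fold (GSK to Veh, minus the median of all promoters with both peaks) for each gene of 16 lists, with a black line at the list median. The top bar spans the quartiles and the thin line the 5% to 95% range of all promoters. Right, share of genes with a promoter peak that had it in both lists, Veh only or GSK only. Replication histone genes centre on 0.28, and the top row gives the background of 68.2%, 22.7% and 9.1%.

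The other antibodies separated shared from unshared Pol II peaks. H3K4me3 of the same treatment overlapped 91.4% of shared Veh and 92.3% of shared GSK peaks, against 26.0% and 11.6% of unshared ones, a difference of 65.4 points in Veh and 80.7 in GSK. At promoters, however, unshared peaks had it nearly as often, 91.8% in Veh and 85.4% in GSK. No mark of the 5 overlapped 2.62% and 4.25% of shared peaks but 67.3% and 84.8% of unshared peaks. At gene body summits of Veh cells H3K27ac overlapped 73.0% of the shared (69.2 to 76.5) and 10.2% of the unshared peaks (9.21 to 11.4). In GSK cells the values were 31.4% (27.7 to 35.3) and 1.12% (0.809 to 1.54). H3K27ac was lower in GSK over the whole list, at 33.6% of all Veh and 13% of all GSK Pol II peaks and at 55.2% and 26.3% of those in promoters. The study's reporting summary gives fewer read pairs for H3K27ac in GSK, and the part of depth was not tested. Promoters with an LSD1 peak in both treatments had a median relative Pol II log2 fold of 0.00, those with LSD1 in Veh only −0.03, in GSK only 0.01, and those without LSD1 0.01.

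The sequence under the summits differed in the same way. In the 100 bases on either side of the summit the median G+C content was 62.7% at shared Veh peaks and 63.2% at shared GSK peaks, and 45.8% and 43.8% at unshared ones. Within promoters the values were close, 64.7% and 65.2% for shared and 63.7% and 63.2% for unshared peaks. Away from genes the unshared summits had 42.8% and 42.3%. Windows that were mostly masked as repeats made up 2.42% and 2.28% of shared and 12.5% and 15.4% of unshared peaks.

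Promoter motifs were searched in RefSeq promoter sequences, 23307 in all, which covered 74.6% of the genes. Each sequence took the class of its gene, so a sequence at a further TSS of a gene may have no Pol II peak of its own. GGGCGG, a GC box, was found on either strand in 64.6% of sequences of genes with a promoter peak in both lists. The share was 60.8% for Veh-only genes, 57.3% for GSK-only genes, 34.9% for genes with none and 45.2% for all. CCAAT was found in 38.8%, 40.1%, 38.8% and 37.8%, and in 38.3% of all. TATAAA starting 15 to 40 bases before the TSS on the strand of the gene, as at Polr2a and Tnf, was rare. It was found in 1.3% of sequences of genes with both peaks and 2.54% of all. The 61 genes with both peaks and such a match had a median fold of 8.47 in Veh and 6.71 in GSK, against 5.74 and 4.57 for those without, and their median relative log2 fold was 0.04 against 0.00. These matches describe letters in the sequence and not bound factors.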

How the data were processed

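ChIP-seq peaks were analysed as deposited. Per the study's methods, the authors aligned reads to mm10 by Bowtie2, kept unique matches, discarded PCR duplicates and ran MACS2 on each library (cutoff p = 0.001). Input libraries were the controls. The reporting summary states, before the step of peak calling, that libraries were brought to the same number of reads by random picking, while the methods tie this to the comparison of signals, so whether the deposited peaks were called on picked reads is unclear. Which input served each call and the fragment length are not given in the sources used here. The deposited columns hold a fold enrichment (a ratio of pileup over local background), the −log10 p, the −log10 q and a score of 10 times the −log10 p, cut to a whole number. The Pol II lists also give a summit. The 4 input samples were not analysed here, and no columns of other samples were present. The peak lists hold no read numbers, so the depth behind each list cannot be read from them, and a list grows with depth as well as with enrichment. The reporting summary gives more unique read pairs for the GSK than for the Veh library.

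TSSs and genes were those of curated RefSeq transcripts of GRCm38.p6 (31647 TSSs, 26182 genes), the same chromosome coordinates as mm10, printed with the first base as 1. Each summit was assigned in the order promoter (within 1 kb of a TSS), gene body, up to 5 kb past a gene end, and elsewhere. Peaks overlapping by 1 bp were called shared. A gene's promoter fold was the highest fold of a peak overlapping its promoter. Shares have Wilson, differences Newcombe and densities exact Poisson 95% intervals. With 1 library a group no test was possible. Named promoters were the 10 of highest mean fold, the 10 Veh-only and 10 GSK-only genes of highest −log10 p with no peak of the other list within 1 kb, and the 6 highest and 6 lowest relative folds at a −log10 p of at least 10 in both. Also named were the 8 genes with most body peaks, the strongest peaks past gene ends and over 5 kb from genes, and genes of the lists. Maml3 was chosen after its values were seen, as 1 of the 8 genes with most shared body peaks. Members and lists were chosen with earlier results of these data known. The snRNA details and the comparison of lists by strength were chosen after values were seen. Motifs were searched on both strands. Scripts, tested on simulated peaks, used Python 3.11.15, pandas 2.3.3, NumPy 2.4.6, SciPy 1.17.1 and samtools 1.23.1. Alternative thresholds, overlaps, windows and annotations were tried. Values of 2 genes of the lists are not reported here.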

Additional observations from a re-analysis of the deposited data

How the results depend on the processing

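Of 53 alternatives computed for 10 results, 30 kept their value within the counting interval, or within 1.5 times for counts of genes, 21 moved further and 2 turned sign. With peaks of −log10 q of at least 2 the promoter difference was 0.24 points and the gene body difference −0.333 points. With the 10000 strongest peaks of each list these were −10.5 and 3.30 points. The ratio of GSK to Veh peak numbers, 0.985 (0.963 to 1.01) as deposited, was 0.886 at a −log10 p of at least 5, 0.778 at a −log10 q of at least 2 and 0.953 by covered length. The shared share of Veh peaks was 59.2% and 58.5% under these 2 thresholds, 56.2% in the 10000 strongest, 31.1% when 50% of both peaks had to be covered and 35.5% with summits within 250 bp. The GSK share was 66.6%, 74.8%, 56.1%, 31.6% and 36.1% in the same order. Genes with GSK peaks only numbered 973, 766 and, in the promoter window alone, 769. The excess of H3K4me3 at shared peaks, 73.0 points over both lists, was 43.3, 35.5 and, in the 10000 strongest, 56.4 points. The cause of these moves was not tested beyond what each threshold removes by its construction. No paired analysis was possible because each group held 1 library, and for the same reason no library could be left out.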
